A study of Danio rerio with 12 samples.

Results

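The ovary of adamts9 mutant zebrafish at 61 days post fertilization (dpf) was compared with the ovary of wild-type zebrafish at 47 dpf, to see how far the older mutant ovary resembled an earlier wild-type stage. The comparison took the 3 libraries labelled mutant at 61 dpf and the 3 labelled wild type at 47 dpf, 6 of the 12 libraries in all, and every named gene of the deposited count table. The wild type is the AB strain. The mutants are lines carrying a mutation in adamts9, with no allele named in the labels. The other 6 libraries, 3 of wild type at 61 dpf and 3 of mutant at 47 dpf, entered the fit and served as a scale. All 12 are libraries of polyadenylated RNA of whole ovary. Whether a replicate is 1 fish or a pool is not stated in the labels, and p-values cover only the differences from library to library, some of which may be technical. The ages are those of the labels, and the design text gives others, so the gap in days between the groups is not certain. The groups compared differ in genotype and in age, and the parts of the 2 in any difference between them cannot be told apart from this comparison alone.

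Adamts9 is a secreted metalloprotease that cuts proteoglycans of the extracellular matrix. In the juvenile zebrafish ovary, oocytes enter meiosis, are enclosed by somatic follicle cells and grow through primary stages. Follicle cells then gain receptors for the pituitary gonadotropins, and the liver supplies vitellogenins, the yolk precursors that growing oocytes take up. An early ovary therefore holds mostly small oocytes, and a later one holds growing follicles with yolk. Bulk RNA of a whole organ cannot tell fewer cells of a type from less RNA per cell.

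Estimated counts per library totalled 22974923, 26005004 and 17593162 in mutant at 61 dpf and 23698884, 26940855 and 27653142 in wild type at 47 dpf. Between 24217 and 24530 genes had a count in each of the first group and between 24233 and 24460 in each of the second. Levels are given as CPM, counts scaled to a common library total, with library sizes scaled by TMM (trimmed mean of M-values). Defining markers of the ovary were present in all 6 libraries: the oocyte gene zar1 was at 648, 708 and 585 CPM in wild type and 763, 686 and 719 CPM in mutant, and the oocyte gene buc lay between 840 and 1060 CPM. Of the testis markers, cyp11c1 and insl3, which mark hormone-making cells of the testis, stayed under 1 CPM in each of the 6. The testis marker dmrt1, described below, was at 5.39 to 21.4 CPM in wild type and 2.33 to 4.8 CPM in mutant. The spermatid marker odf3b was at 9.91 to 16.9 CPM in the 6 libraries. Markers of the exocrine pancreas ran through both groups without separating them: the trypsinogen gene prss1 was at 74.7, 0.991 and 19.8 CPM in wild type and 28.1, 2.26 and 87.1 CPM in mutant.

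The adamts9 transcript itself was at 18.9, 17.4 and 13.7 CPM in wild type at 47 dpf and at 12.9, 16.1 and 14.4 CPM in mutant at 61 dpf. The groups overlapped, and the log2 fold change was -0.20, with a 95% interval of -0.68 to 0.28 (adjusted p = 0.851). Its abundance is thus no check of the genotype label.

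Between the older mutant and the younger wild type, 17 of 21393 genes tested passed an adjusted p of 0.05 in edgeR's quasi-likelihood test with Benjamini-Hochberg adjustment, which is 0.0795% of those tested. Of these, 10 were higher (0.0467%) and 7 were lower (0.0327%) in the mutant. At an unadjusted p under 0.05 there were 1876 genes, 1301 of them higher (6.08%) and 575 lower (2.69%). The median log2 fold change over all genes was 0.01 and the median of its size was 0.26, with 90% of genes under 0.88. A p over the threshold does not show likeness, so the intervals were counted as well. For 10786 genes (50.4%) the whole 95% interval of the fold change lay inside a fold of 2 in either direction, and for 110 genes it lay wholly beyond a fold of 2. In 4504 genes (21.1%) the CPM of the groups did not overlap, 2501 of them with the mutant above (11.7%) and 2003 with the mutant below (9.36%).

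The comparisons that serve as a scale share libraries with this one. Wild type at 61 dpf against the same wild type at 47 dpf gave 327 called genes (1.53%), 158 of them higher (0.739%) and 169 lower (0.79%), a median size of the log2 fold change of 0.38, and 8863 genes (41.4%) inside a fold of 2. The same mutant libraries against wild type of their own age gave 390 called genes (1.82%), 262 higher (1.22%) and 128 lower (0.598%), with a median size of 0.42 and 8377 genes (39.2%) inside a fold of 2. Comparisons without wild type at 61 dpf gave few calls as well. Mutant against wild type at 47 dpf gave 19 of 21393 genes, a median size of 0.22 and 11341 genes (53%) inside a fold of 2. The mutant ages gave no called gene, a median size of 0.20 and 11898 genes (55.6%) inside. The order of the called counts rests on the estimate of spread that the 12 libraries share: fitted on its own 6 libraries, the older mutant against the younger wild type gave 71 called genes (0.346% of 20501 tested), while the comparison of the wild-type ages gave 26 and that of the genotypes at 61 dpf gave 20. The spread between replicates (biological coefficient of variation) was 0.276 in the first of these separate fits and 0.352 and 0.339 in those with wild type at 61 dpf, against 0.33 in the shared one. Counts of called genes are therefore no measure of likeness here, and the distances that follow are given beside the spread within groups.

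The distance between a pair of libraries, as the root mean square of the difference in log2 CPM over the genes tested, averaged 0.812 over the 9 pairs of a 61 dpf mutant with a 47 dpf wild type, with a range of 0.767 to 0.869. Pairs within a group averaged 0.697 among the mutant libraries at 61 dpf and 0.742 among the wild-type libraries at 47 dpf. The same mutant libraries lay 0.971 on average from wild type of their own age (range 0.879 to 1.1) and 0.773 from mutant at 47 dpf. Wild-type libraries at 61 dpf were the most spread, at 0.923 among themselves. With the spread within groups taken off, an alternative added after the data were seen, the distance of the older mutant was 0.375 to younger wild type, 0.528 to wild type of its own age and 0.152 to younger mutant. By the same measure, wild type at 47 dpf lay 0.509 from wild type at 61 dpf and 0.252 from mutant at 47 dpf. For each of the 3 mutant libraries at 61 dpf the nearest wild-type library was one of 47 dpf. Their mean distances to the 3 younger wild-type libraries were 0.822, 0.809 and 0.804, and to the 3 of their own age 0.964, 0.953 and 0.997.

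**Figure D1:**
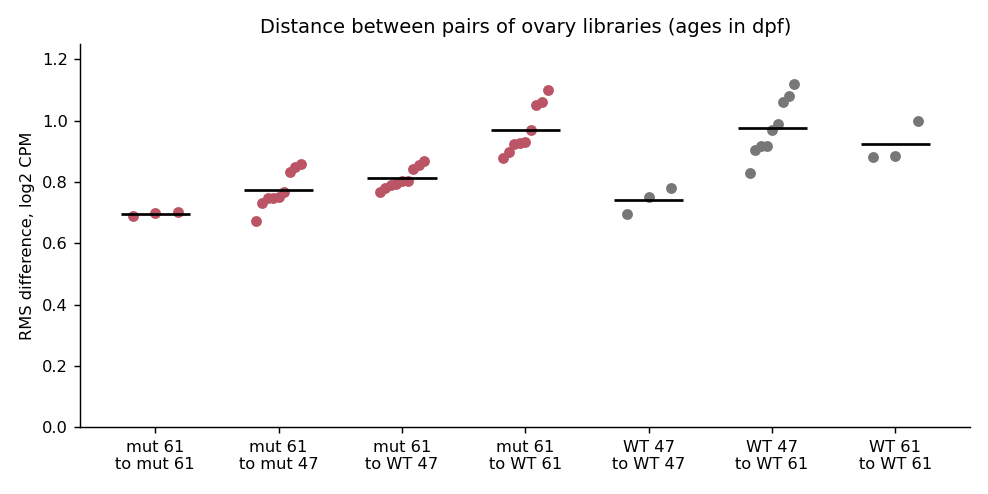
Root mean square difference in log2 CPM between pairs of libraries (vertical axis, from 0), by the groups of the pair; each point is 1 pair and each line the mean of its pairs. All pairs of a 61 dpf mutant with a 47 dpf wild type lie between 0.767 and 0.869, below the pairs with 61 dpf wild type, which start at 0.879, and above the mean of 0.697 within the mutant.

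Of the 17 called genes, 8 lie on the chromosome of adamts9 in the GRCz12tu gene order, which is not the assembly of the deposited counts and is used here only for order. That was 8 of 634 genes tested there (1.26%), against 4 of 17521 on other chromosomes (0.0228%); 5 of the called genes had no place in that table. The nearest of them, prickle2b, lies 3 protein-coding genes from adamts9, ogfrl2 lies 15 from it and the farthest, phf2, 143. For the comparison of the wild-type ages the shares were 2.05% on that chromosome and 1.38% elsewhere. Between the genotypes they were 1.58% and 0.0228% at 47 dpf, and 4.42% and 1.64% at 61 dpf. No gene was called between the mutant ages.

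Among these 8, rpusd4, whose human counterpart modifies mitochondrial RNA, was at 44.6, 48.9 and 52.7 CPM in wild type at 47 dpf and at 6.12, 7.79 and 6.74 CPM in mutant at 61 dpf. All mutant libraries lay far below all wild-type ones, with a log2 fold change of -2.82 ± 0.18 (SE, adjusted p = 5.8e-05). The older wild type stood at 50.7, 43.3 and 39.6 CPM and mutant at 47 dpf at 7.67, 8.93 and 7.38 CPM, so both mutant ages were low and both wild-type ages high.

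tmf1, which encodes a golgin of the Golgi apparatus, fell from 27.6, 32.7 and 43.9 CPM to 5.67, 7.64 and 6.18 CPM (log2 fold change -2.42 ± 0.25, adjusted p = 0.00155). uba3, the catalytic subunit of the enzyme that activates the ubiquitin-like protein Nedd8, fell from 59.4, 62.2 and 79.2 CPM to 19.6, 16 and 18.3 CPM (-1.90 ± 0.22, adjusted p = 0.00301). phf2, which encodes a histone demethylase, moved least, from 22.2, 27.5 and 31.1 CPM to 11.3, 12.7 and 9.69 CPM (-1.26 ± 0.19, adjusted p = 0.0377). In each of these 3 genes the groups did not overlap, and mutant at 47 dpf lay within 5.01 to 8.13, 15.4 to 24.4 and 9.24 to 12 CPM.

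A pair of the 8 rose. ogfrl2, named for its likeness to the opioid growth factor receptor, was at 2.44, 1.68 and 2.02 CPM in wild type and 49.9, 51 and 47.3 CPM in mutant (log2 fold change 4.59 ± 0.34, adjusted p = 0.000148). prickle2b, a gene of the planar cell polarity pathway, was at 26.5, 16.2 and 17.8 CPM in wild type and 78.6, 73.2 and 95.8 CPM in mutant (2.04 ± 0.29, adjusted p = 0.0196). Wild type at 61 dpf stayed at 1.09 to 2.54 CPM for ogfrl2 and at 11.2 to 23.7 CPM for prickle2b.

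The other called genes of that chromosome carry only clone or catalogue names, and like the 6 other called genes with such names they fall outside the rule for naming and were chosen after their values were seen. si:dkey-13m1.5 was at 23.1, 15 and 47.2 CPM in wild type and 0.286, 0.473 and 0.39 CPM in mutant (log2 fold change -6.19 ± 0.48, adjusted p = 0.000148). zgc:175135 was at 379, 407 and 467 CPM in wild type and 71.5, 83.1 and 81.7 CPM in mutant (-2.41 ± 0.24, adjusted p = 0.00128). Both were as low in mutant at 47 dpf, at 0.302 to 0.612 CPM and 72.4 to 95.2 CPM.

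The 4 called genes placed on other chromosomes were all higher in the older mutant. fn1b, which encodes fibronectin, an adhesive glycoprotein of the matrix, was at 69.9, 60 and 49.3 CPM in wild type at 47 dpf and 306, 546 and 248 CPM in mutant at 61 dpf (log2 fold change 2.62 ± 0.42, adjusted p = 0.0495). Older wild type lay between, at 127, 131 and 182 CPM, and mutant at 47 dpf was at 741, 309 and 248 CPM. Its call sits at the threshold.

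irf1b, a transcription factor of interferon responses, was at 3.89, 4.42 and 4.09 CPM in wild type and 10.8, 15.6 and 15.5 CPM in mutant (log2 fold change 1.76 ± 0.27, adjusted p = 0.0367). nfil3-5, a leucine zipper transcription factor, was at 1.52, 1.41 and 0.993 CPM in wild type and 3.27, 6.59 and 6.9 CPM in mutant (2.09 ± 0.31, adjusted p = 0.0347). The groups overlapped in neither gene. In wild type at 61 dpf, irf1b was at 7.34, 6.38 and 10.9 CPM and nfil3-5 at 6.17, 6.29 and 7.27 CPM. Mutant at 47 dpf was at 10.4, 7.78 and 12.2 CPM for irf1b and 3.11, 3.56 and 4.06 CPM for nfil3-5. Neither gene was called between the genotypes at 61 dpf (adjusted p = 0.103 and 0.651). si:dkey-7i4.24 was under 0.5 CPM in each wild-type library at 47 dpf and at 25.2, 20.1 and 28.6 CPM in the mutant ones (5.79 ± 0.81, adjusted p = 0.0196).

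Of the 5 called genes without a place in the gene order, zgc:173545 was at 275, 318 and 310 CPM in wild type and 1.55, 3.89 and 5.57 CPM in mutant (log2 fold change -6.37 ± 0.67, adjusted p = 0.00155). LO018315.3 went the other way, from 18.5, 12.6 and 15.7 CPM to 977, 946 and 1150 CPM (6.04 ± 0.62, adjusted p = 0.00155). BX572634.1 had no count in the 3 younger wild-type libraries and 63, 56 and 40 counts in the mutant ones, which is at least 58.8-fold higher against a floor of 3 counts over the wild-type group (adjusted p = 0.000935). It was also at 0 to 0.0271 CPM in wild type at 61 dpf. The estimation can divide reads between similar copies of a gene, and the counts do not state the use of strand, so values of clone-named and overlapping genes are uncertain for a single gene.

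The remaining pair, si:ch211-269k10.5 and CT027645.1, was, like nfil3-5, also called between the wild-type ages. si:ch211-269k10.5 was at 2.56, 1.68 and 1.18 CPM in wild type at 47 dpf, 29.8, 18.8 and 46.2 CPM in mutant at 61 dpf and 28.5, 23.9 and 15.8 CPM in wild type at 61 dpf (log2 fold change of the older mutant 4.13 ± 0.45, adjusted p = 0.00192). CT027645.1 had no count in wild type at 47 dpf and 71, 100 and 95 counts in the older mutant, at least 102-fold higher against the same floor (adjusted p = 0.00725). It was at 6.98, 9.45 and 1.72 CPM in wild type at 61 dpf. Both were also present in mutant at 47 dpf, at 19.8 to 43.4 CPM and 4.11 to 4.76 CPM.

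Not all of these calls were equally firm. In the 6 fits that each left out 1 library of the groups compared, 11 of the 17 genes were called every time: rpusd4, tmf1, uba3, ogfrl2, si:dkey-13m1.5, zgc:175135, zgc:173545, LO018315.3, BX572634.1, si:ch211-269k10.5 and CT027645.1. prickle2b was lost without mutant replicate 3 or wild-type replicate 2 or 3 (adjusted p = 0.0729, 0.145 and 0.194), and si:dkey-7i4.24 without wild-type replicate 1, 2 or 3 (0.133, 0.15 and 0.19). The other 4 were each kept in 1 of the 6 fits: fn1b without mutant replicate 3, irf1b and nfil3-5 without mutant replicate 1, and phf2 without wild-type replicate 1. In the fits that lost them, the adjusted p reached 0.281 for fn1b and 0.232 for irf1b, nfil3-5 and phf2. The log2 fold changes moved little, from 2.2 to 2.83 for fn1b, 1.65 to 1.9 for irf1b, 1.91 to 2.36 for nfil3-5 and -1.4 to -1.14 for phf2.

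**Figure D2:**
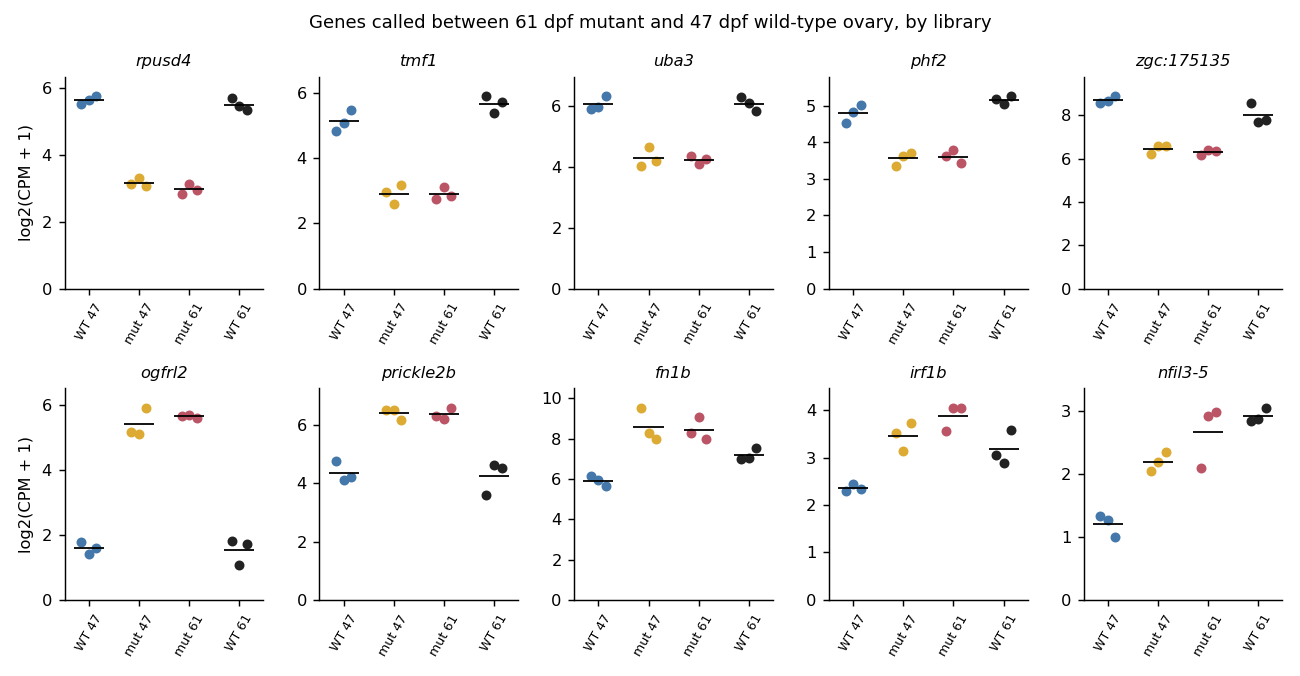
The 10 called genes chosen for the plot, as log2(CPM + 1) on the vertical axis from 0, in the 3 libraries of each group (WT, wild type; mut, mutant; ages in dpf); points are libraries and lines their mean. For rpusd4, tmf1, uba3, phf2 and ogfrl2 both mutant ages stand apart from both wild-type ages, while for nfil3-5 the older wild type (6.17 to 7.27 CPM) stands with the older mutant.

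None of the 18 key gonad genes passed the adjusted threshold between the older mutant and the younger wild type. Only 0.0795% of all genes did, so the absence of calls says nothing particular to these genes. Their intervals ranged from narrow to wide, and in dmrt1, star, gdf9 and ddx4 the groups did not overlap, against 21.1% of all genes. fshr, the receptor of follicle cells for follicle stimulating hormone, was at 4.37, 3.89 and 4.66 CPM in wild type at 47 dpf and 4.86, 4.11 and 3.9 CPM in mutant at 61 dpf. The groups overlapped, and the 95% interval of the log2 fold change was -0.53 to 0.52. In wild type at 61 dpf it was at 7.31, 11.5 and 10.4 CPM, above all 6 libraries and called against each of those groups (log2 fold change 1.17 ± 0.24, adjusted p = 0.0385, with age in wild type; -1.18 ± 0.24, adjusted p = 0.0379, for the mutant at 61 dpf).

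gsdf, a growth factor of gonadal somatic cells, was at 93.3, 51.3 and 52.1 CPM in the younger wild type and 36.1, 44.8 and 53.6 CPM in the older mutant. The ranges touched, with a log2 fold change of -0.55 (interval -1.26 to 0.17, adjusted p = 0.674). The older wild type was at 17.1, 18.9 and 9.93 CPM, lower than both (-2.10 ± 0.34, adjusted p = 0.0239, with age in wild type; 1.55 ± 0.34, adjusted p = 0.0438, for the mutant at 61 dpf).

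Without wild-type replicate 1 at 47 dpf the value was -0.22, and without replicate 2 of that group -0.70.

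For the other somatic genes the intervals were as follows. amh, which encodes anti-Müllerian hormone, was at 6.93, 6.63 and 5.62 CPM in wild type and 6.12, 7.39 and 6.46 CPM in mutant (interval of the log2 fold change -0.60 to 0.72). foxl2a, a transcription factor of ovarian follicle cells, had an interval of -0.59 to 0.87, and inha, the inhibin alpha subunit, one of -1.47 to 0.10. lhcgr, the receptor for luteinizing hormone, was at 1.36, 0.8 and 0.573 CPM in wild type at 47 dpf, 2.12, 1.2 and 1.5 CPM in the older mutant and 2.49, 3.78 and 2.28 CPM in wild type at 61 dpf. cyp19a1a, the ovarian aromatase that makes estrogen, stayed at or under 2.87 CPM in these 6 libraries and its interval of -0.35 to 2.73 bounds little. Over the 32 tested genes of the granulosa cell and gonadotropin receptor list the median log2 fold change was 0.20, and it was 0.04 without mutant replicate 2 and 0.35 without mutant replicate 3. At an unadjusted p under 0.05, 3 of these genes were higher and 1 lower, against 6.08% and 2.69% of all genes, and 14 lay inside a fold of 2, against 50.4% of all genes. The member with the smallest p, igfbp5b, which encodes a binding protein of insulin-like growth factors, was at 15.6, 6.97 and 11.3 CPM in wild type and 23.8, 28.2 and 30.3 CPM in mutant without overlap (log2 fold change 1.28, adjusted p = 0.156).

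Steroid-making genes did not move together. cyp17a1, an enzyme of androgen synthesis, was at 136, 146 and 171 CPM in wild type and 152, 149 and 170 CPM in mutant, and its interval of -0.40 to 0.52 is among the tighter of the key genes. star, which carries cholesterol into mitochondria, was at 1.2, 1.64 and 1.22 CPM in wild type and 0.98, 0.655 and 1 CPM in mutant (log2 fold change -0.63, adjusted p = 0.593). srd5a2b, a steroid reductase gene, was at 4.29, 2.86 and 2.67 CPM in wild type and 0.122, 0.327 and 0.223 CPM in mutant, with no overlap and a log2 fold change of -3.82 ± 0.85 that missed the threshold (adjusted p = 0.135). It was called in the fit of the 6 compared libraries (adjusted p = 0.0189), and wild type at 61 dpf was at 0.271, 0.142 and 0.043 CPM. Among the steroid receptors, pgr (progesterone receptor) had an interval of -0.21 to 1.02 and esr1 (estrogen receptor) one of -2.55 to 0.80.

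Of the oocyte genes, figla, an oocyte transcription factor of early follicles, was at 56.8, 45.2 and 63.1 CPM in wild type at 47 dpf and 43.9, 59.6 and 50.6 CPM in mutant at 61 dpf (interval of the log2 fold change -0.61 to 0.41). bmp15, a growth factor that oocytes secrete, was at 151, 164 and 229 CPM in wild type and 198, 183 and 162 CPM in mutant (interval -0.62 to 0.62). In wild type at 61 dpf, figla was at 23.2, 21.8 and 37.3 CPM and bmp15 at 236, 285 and 539 CPM, outside the range of both groups, although neither difference with age in wild type passed the threshold (adjusted p = 0.0572 and 0.0965). gdf9, a second oocyte growth factor, was at 75.6, 91 and 76.7 CPM in wild type at 47 dpf and 57.6, 66.4 and 69.4 CPM in the older mutant without overlap, a log2 fold change of -0.33 (interval -0.66 to 0.00, adjusted p = 0.564). lhx8a, a transcription factor that mouse oocytes need early, was at 86.4, 88 and 69.4 CPM and at 58.8, 64.2 and 63.6 CPM (adjusted p = 0.538). Over the 26 genes of the oocyte list the median was -0.09, and 21 lay inside a fold of 2 against 50.4% of all genes. This list was narrow in the other comparisons as well, with 18 inside a fold of 2 between the wild-type ages and 16 between the genotypes at 61 dpf.

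Of the germ cell genes, none was called, against 0.0795% of all genes. dazl, an RNA-binding protein gene of germ cells, was at 614, 623 and 546 CPM in wild type and 564, 504 and 517 CPM in mutant. piwil1, which encodes a Piwi protein that binds piRNAs, was at 192, 164 and 192 CPM and at 126, 124 and 138 CPM (log2 fold change -0.50, adjusted p = 0.641). ddx4, the germ cell helicase gene vasa, was at 362, 340 and 737 CPM in wild type and 1640, 862 and 957 CPM in mutant (log2 fold change 1.26 ± 0.48, adjusted p = 0.44). nanos1, which encodes an RNA-binding translational regulator, was at 2.52, 1.6 and 1.22 CPM in wild type and 6.08, 7.24 and 5.01 CPM in mutant (1.78 ± 0.33, adjusted p = 0.0862). The 24 genes of the germ cell and piRNA list had a median of -0.08 with 16 inside a fold of 2, and the 25 of meiosis a median of -0.19 with 7 inside. Of the 28 genes of oocyte maturation kinases and cyclins, 25 lay inside a fold of 2. So did 26 of the 30 cell cycle genes, whose median was -0.08. Among all genes, 50.4% lay inside. Between the wild-type ages the counts inside for these lists, in the order given, were 14, 6, 21 and 20. They were 16, 7, 21 and 19 between the genotypes at 61 dpf.

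The male-pathway gene dmrt1, a transcription factor of testis development, was at 21.4, 14.8 and 5.39 CPM in wild type at 47 dpf and 2.33, 4.8 and 2.67 CPM in mutant at 61 dpf. The groups did not overlap, with a log2 fold change of -2.08 ± 0.82 and an adjusted p of 0.477. In wild type at 61 dpf it was at 2.35, 12.8 and 2.15 CPM, so 1 library of that group lay with the younger wild type. Over the 20 genes of the testis somatic cell list the median was 0.18, and it was 0.09 without wild-type replicate 2 at 47 dpf. At an unadjusted p under 0.05, 6 were higher and 2 lower, against 6.08% and 2.69% of all genes. The member with the smallest p was wt1b, a transcription factor of gonadal and renal support cells, at 4.65, 3.28 and 2.52 CPM in wild type and 7.47, 16.5 and 9.47 CPM in mutant (1.68 ± 0.36, adjusted p = 0.124).

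The sum of the yolk precursors, and vtg1 among them, divided the older mutant libraries. vtg1, a vitellogenin gene, was at 0.28, 0.381 and 0.306 CPM in wild type at 47 dpf, at 7.67, 0.4 and 0.223 CPM in mutant at 61 dpf and at 64.1, 8.65 and 61.1 CPM in wild type at 61 dpf. Mutant replicate 1 alone of these 6 libraries was above 1 CPM, and the log2 fold change of 3.09 carried an SE of 1.38 (adjusted p = 0.557). The 6 tested vitellogenin genes summed to 2.48, 2.9 and 1.49 CPM in the younger wild type, 12, 2.69 and 1.84 CPM in the older mutant and 103, 14.1 and 116 CPM in the older wild type. Their median log2 fold change was 1.71 and ranged from 0.40 to 3.13 when a library was left out. The member with the smallest p, vtg2, was at 0.16, 0.114 and 0 CPM in the younger wild type. In the older mutant it was at 1.31, 0.218 and 0.668 CPM, without overlap (log2 fold change 2.94, adjusted p = 0.508). Against wild type of their own age, vtg4 and vtg7 were lower in the older mutant (log2 fold change -5.22 ± 1.19, adjusted p = 0.0497, and -4.12 ± 0.88, adjusted p = 0.0427). In mutant replicate 1 the liver marker fabp10a was at 7.39 CPM, against 0.182 and 0.111 CPM in replicates 2 and 3, and its part in the vitellogenin values was not tested.

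Apolipoprotein E stood differently. apoeb was at 1.4, 0.648 and 1.53 CPM in wild type at 47 dpf and 17.2, 16.5 and 8.8 CPM in mutant at 61 dpf, with all mutant libraries above all wild-type ones (log2 fold change 3.57 ± 1.06, adjusted p = 0.297). It was called in the fit of the 6 compared libraries (adjusted p = 0.0226). In the older wild type it was at 66.3, 6.1 and 159 CPM. Egg coat genes lay slightly below: none of the 20 tested zona pellucida genes had a positive log2 fold change, against 51% of all genes. Their median was -0.30, and in 7 the groups did not overlap with the mutant below, against 9.36% of all genes. With the spread shared by the 12 libraries, none had an unadjusted p under 0.05 or an interval inside a fold of 2. zp2l2, the member with the smallest p, was at 111, 98.9 and 113 CPM in the younger wild type and 61.9, 61.9 and 75.4 CPM in the older mutant (log2 fold change -0.70 ± 0.53). In the older wild type it was at 81.3, 20.2 and 10.8 CPM. The 20 genes summed to 23500, 23800 and 28400 CPM in the younger wild type, 19500, 18300 and 23500 CPM in the older mutant, and 25400, 5210 and 6030 CPM in the older wild type. The egg coat gene zp3b was at 1450, 1290 and 1300 CPM in the younger wild type and 1020, 956 and 1320 CPM in the older mutant (interval of the log2 fold change -1.17 to 0.58).

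**Figure D3:**
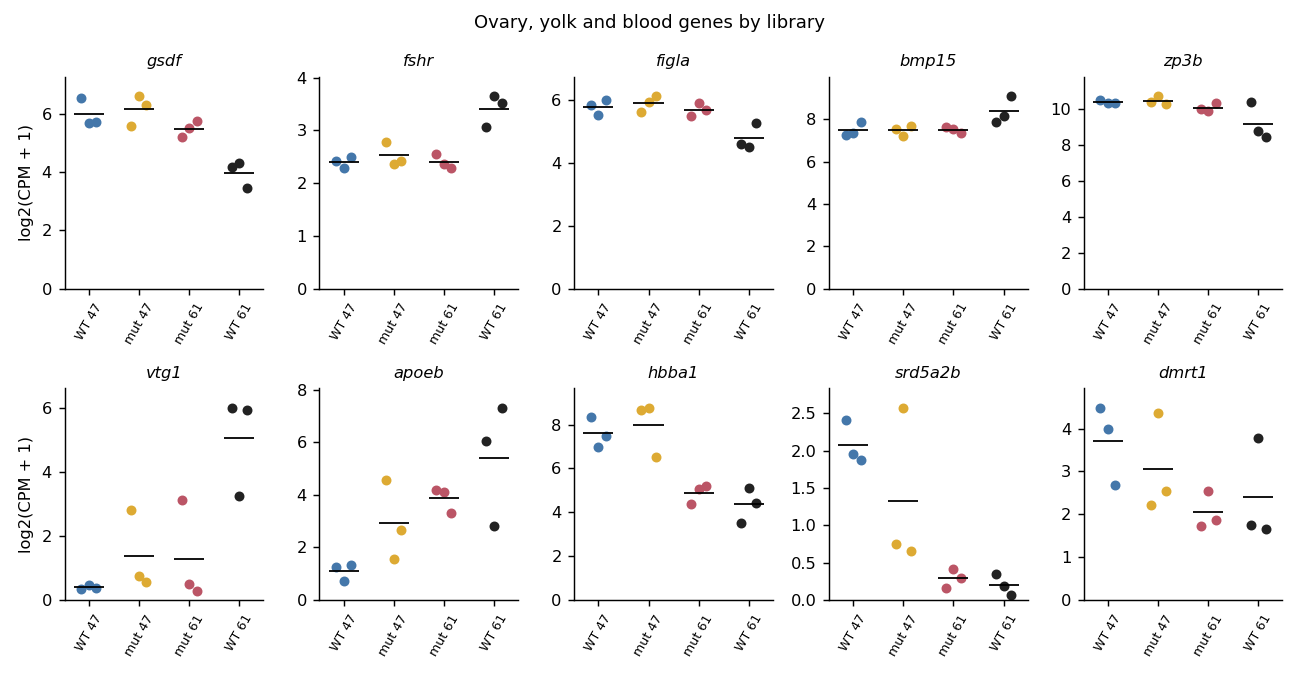
Ovary, yolk and blood genes as log2(CPM + 1), vertical axis from 0, in the 3 libraries of each group, with lines at the mean. For fshr, figla and bmp15 the older mutant lies with wild type of 47 dpf, while for hbba1 (19.7 to 36.1 CPM) and srd5a2b (0.122 to 0.327 CPM) it lies with wild type of 61 dpf. For gsdf its mean of 44.8 CPM lies between those of wild type at 47 dpf (65.6 CPM) and at 61 dpf (15.3 CPM).

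For the globin genes the older mutant lay nearer to wild type of its own age. The adult globin genes hbaa1 and hbba1 were at 179, 110 and 118 CPM and at 320, 126 and 178 CPM in wild type at 47 dpf. In the older mutant they were at 9.51, 20.1 and 23.1 CPM and at 19.7, 32 and 36.1 CPM, and in wild type at 61 dpf at 3.65, 17.8 and 14.1 CPM and at 10.5, 33.9 and 20.4 CPM. No mutant library at 61 dpf overlapped the younger wild type in either gene. The log2 fold changes of -2.95 ± 0.66 and -2.83 ± 0.59 missed the threshold in the fit of 12 libraries (adjusted p = 0.138 and 0.118) and passed it in the fit of the 6 compared (0.0247 and 0.0375). With age in wild type both fell (-3.53, adjusted p = 0.0329, and -3.27, adjusted p = 0.0293). Mutant at 47 dpf was at 195, 355 and 58.5 CPM for hbaa1 and 401, 436 and 90.9 CPM for hbba1. Between the mutant ages the log2 fold changes were -3.53 and -3.40 (adjusted p = 0.776 and 0.598).

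alas2, the first enzyme of heme synthesis in red cells, followed the globins, at 7.69, 2.82 and 4.74 CPM in the younger wild type and 0.408, 0.655 and 0.891 CPM in the older mutant (log2 fold change -2.97, adjusted p = 0.1). Over the 20 genes of the erythroid list the median was -0.80, 1 was positive, 8 were lower at an unadjusted p under 0.05 against 2.69% of all genes, and 10 did not overlap with the mutant below against 9.36%. The list summed to 705, 404 and 504 CPM in the younger wild type and 186, 223 and 189 CPM in the older mutant. Blood left in the tissue is not recorded in the sources used here.

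The other genes that fell most with age in wild type each stood differently in the older mutant. cntnap3, a cell adhesion gene of the contactin-associated family, was at 28.7, 16.1 and 25.3 CPM in wild type at 47 dpf, 4.2, 11.2 and 11.7 CPM in the older mutant and 2.08, 4.96 and 1.38 CPM in wild type at 61 dpf. The log2 fold change of the older mutant was -1.37 ± 0.48 (adjusted p = 0.404) and that of age in wild type -3.06 ± 0.51 (adjusted p = 0.025). c3a.4, a gene of complement component C3, was at 3.97, 20.8 and 12.3 CPM in the younger wild type and 2.94, 1.42 and 3.56 CPM in the older mutant (-2.24 ± 0.57, adjusted p = 0.205), and at 1.98, 1.89 and 0.903 CPM in wild type at 61 dpf. ptk2bb, a focal adhesion tyrosine kinase gene, was at 12.1, 21.6 and 24.4 CPM in the younger wild type and at 2.08, 28.7 and 1.67 CPM in the older mutant, where replicate 2 lay above the younger wild type and the other 2 near wild type at 61 dpf (0.731, 0.804 and 1.16 CPM). Without that replicate its log2 fold change was -3.38 with an adjusted p of 0.0309. Mutant at 47 dpf was also low in ptk2bb, at 1.2, 3.2 and 2.23 CPM.

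The genes called between the wild-type ages, 158 risen and 169 fallen, give a scale on which 0 is the mean of wild type at 47 dpf and 1 that of wild type at 61 dpf. The wild-type libraries chose the genes, so their own places are fixed by the choice and their gap to other libraries is no test. Genes low only in the younger wild type, such as CT027645.1, are in the scale and push every other group above 0. On it the 3 mutant libraries at 61 dpf lay at 0.318, 0.336 and 0.255 (0.303 ± 0.0425, mean ± SD, n = 3), above all younger wild-type libraries, whose highest was 0.0402, and below all of their own age, whose lowest was 0.942. The risen genes stood farther along, at 0.416, than the fallen ones, at 0.187. Mutant at 47 dpf lay at 0.209, 0.0207 and 0.168. The place moved between 0.247 and 0.619 when a library was left out. The highest value came without wild-type replicate 2 at 47 dpf, where only 16 genes formed the scale.

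**Figure D4:**
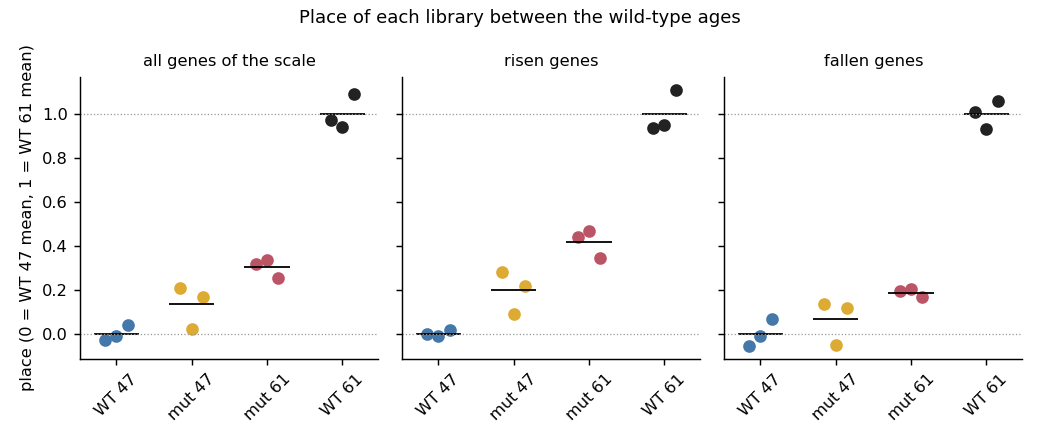
Place of each library (points; lines are group means) on the scale of genes called between the wild-type ages, where 0 is the mean of wild type at 47 dpf and 1 that at 61 dpf, for all these genes, the risen and the fallen. The 61 dpf mutant libraries lie at 0.255 to 0.336 on all genes, and their means are 0.416 for risen and 0.187 for fallen genes.

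Across the 30 gene lists, those of vitellogenin, macrophages and neutrophils, interferon signalling and erythroid cells had the medians farthest from that of all genes. Apart from fn1b and irf1b, no list member passed the adjusted threshold in the older mutant against the younger wild type, beside 0.0795% of all genes. The following are therefore values and counts at an unadjusted p under 0.05, to be read beside 6.08% higher and 2.69% lower among all genes. In the macrophage and neutrophil list the median log2 fold change of 33 genes was 1.23, with 20 higher and 1 lower, and it stayed at 1.17 to 1.33 when a library was left out. The sum of the list did not separate the groups, at 951, 1050 and 753 CPM in wild type at 47 dpf and 1040, 903 and 958 CPM in mutant at 61 dpf. cd74a, the invariant chain of antigen presentation, was at 28.1, 16 and 21.1 CPM in wild type at 47 dpf and 73.4, 64.7 and 63.8 CPM in mutant at 61 dpf (1.63 ± 0.33, adjusted p = 0.101). csf1ra, a receptor of macrophages, was at 2.24, 2.4 and 1.91 CPM and 7.51, 12.2 and 8.07 CPM (2.08 ± 0.49, adjusted p = 0.168). c1qb, a complement gene that macrophages express, was at 1.6, 1.6 and 1.18 CPM and 10.4, 11.2 and 8.3 CPM (adjusted p = 0.135).

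The 3 genes showed no overlap between the groups. In the fit of the 6 compared libraries, 71 of 20501 genes tested were called (0.346%). Of the 31 genes of this list tested there, 5 were called, all higher: c1qb, lgals3bpb, csf1ra, cd74a and lcp1. The lysozyme gene lyz, a neutrophil and macrophage product, went the other way, at 2, 1.41 and 1.34 CPM in wild type and 0.653, 0.691 and 0.445 CPM in mutant (log2 fold change -1.39, adjusted p = 0.173). The neutrophil marker mpx was under 1 CPM in all 6 libraries. Wild type at 61 dpf also had a positive median for this list against wild type at 47 dpf, 0.75, and the older mutant against wild type of its own age one of 0.65. In mutant at 47 dpf against the same younger wild type, 30 of the 33 genes were above 0, beside 52.7% of all genes. At an unadjusted p under 0.05, 18 of the list were higher in that comparison, beside 1093 of all 21393 genes tested. Between the mutant ages the median of the list was 0.00. In the older mutant against wild type of its own age, cd74a was called (1.57 ± 0.33, adjusted p = 0.039).

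In the interferon signalling list, 13 of 26 genes were higher and 1 lower, with a median of 0.82 that ranged from 0.63 to 1.02 when a library was left out. mhc1uba, a major histocompatibility class I gene, was at 0.841, 0.8 and 0.841 CPM in wild type and 3.14, 4.51 and 2.62 CPM in mutant (2.05 ± 0.38, adjusted p = 0.082). stat1b, a transducer of interferon signals, was at 4.81, 5.72 and 5.23 CPM and 6.25, 20 and 13.7 CPM (1.34 ± 0.47, adjusted p = 0.401). In this list the median with age in wild type was -0.19, and that of mutant at 47 dpf against the same younger wild type was 0.96.

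Matrix-degrading and matrix genes also had positive medians: 0.44 over 25 genes of matrix metalloproteases and their inhibitors (9 higher, none lower), 0.35 over 43 of proteoglycans and matrix glycoproteins (8 higher, 1 lower), 0.26 over 46 of collagens and basement membrane (10 higher, none lower) and 0.40 over 18 of the ADAMTS family (1 higher, none lower). The sum of the metalloprotease list went the other way from its median, at 738, 703 and 749 CPM in wild type and 661, 680 and 684 CPM in mutant. Sums of the proteoglycan list (503, 534 and 439 against 770, 984 and 703 CPM) and the collagen list (839, 775 and 744 against 856, 1040 and 882 CPM) were higher in each mutant library. Those of the ADAMTS family overlapped. mmp11b, a secreted metalloprotease, was at 0.2, 0.191 and 0.267 CPM in wild type and 4.2, 6.11 and 2.9 CPM in mutant (interval of the log2 fold change 2.59 to 6.01, adjusted p = 0.0803). mmp14b, a membrane-bound metalloprotease, was at 5.21, 3.77 and 5.12 CPM and 12.9, 22.9 and 18.7 CPM (1.95 ± 0.40, adjusted p = 0.115). mmp9, a gelatinase, was at 4.69, 3.66 and 4.43 CPM and 9.47, 11 and 9.41 CPM (1.22 ± 0.27, adjusted p = 0.135). All 3 were without overlap, and mmp11b and mmp14b were called in the fit of the 6 compared libraries. In wild type at 61 dpf, mmp11b was at 1.33, 0.425 and 2.62 CPM, above all younger wild-type libraries, and mmp9 was at 4.14, 3.59 and 4.26 CPM.

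Wild type at 61 dpf had negative medians against wild type at 47 dpf for the collagen, proteoglycan and metalloprotease lists, at -0.36, -0.44 and -0.42. The same mutant libraries had medians of 0.68, 0.84 and 0.89 against wild type of their own age, and mutant at 47 dpf had 0.42, 0.23 and 0.19 against the same younger wild type. These comparisons share libraries, so the values are given only side by side. The collagen median is the least firm, at 0.10 to 0.45 when a library was left out, and its member with the smallest p, col27a1b, was at 13.5, 15.5 and 13.8 CPM in wild type and 20.5, 27.5 and 20.2 CPM in mutant (0.67 ± 0.19, adjusted p = 0.257).

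**Figure D5:**
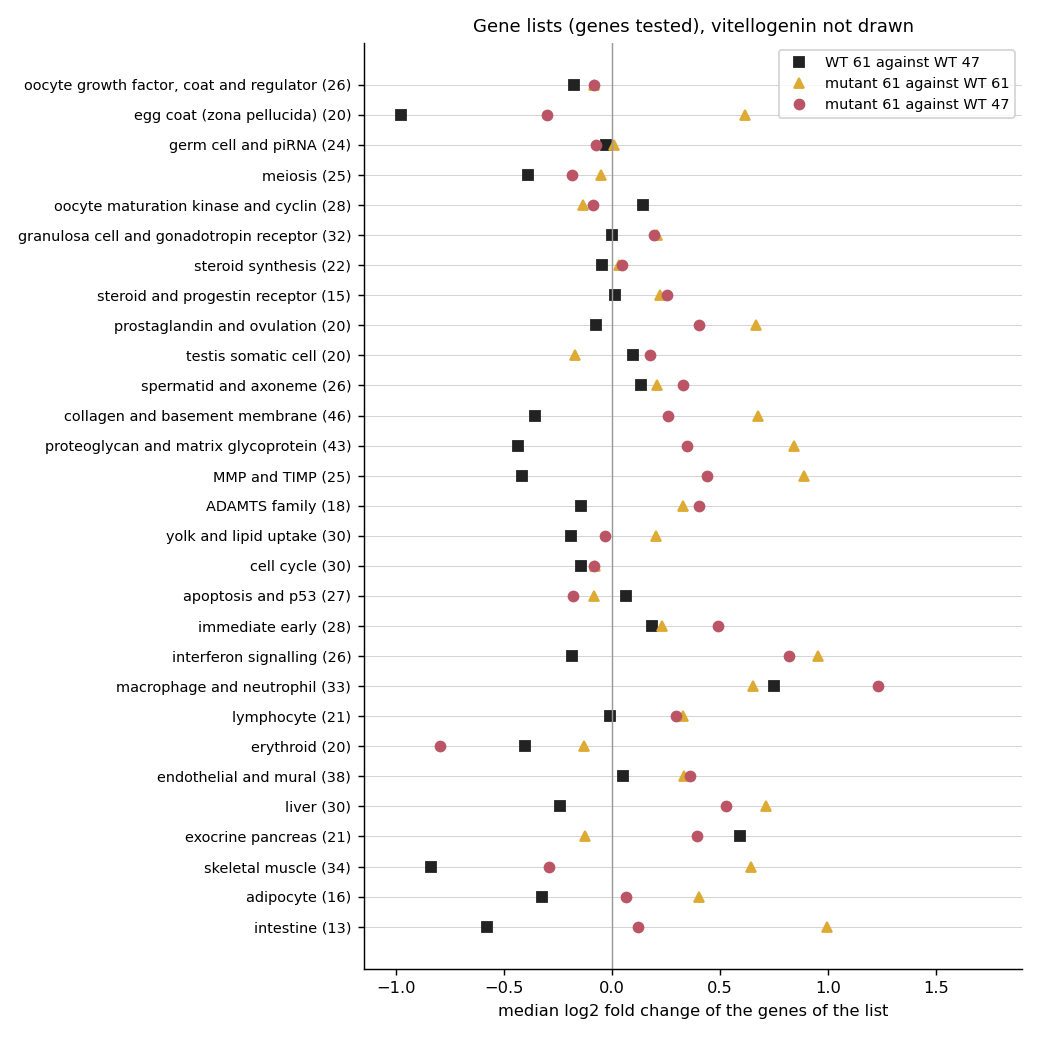
Median log2 fold change (horizontal axis) of each gene list, with the number of genes tested in brackets, for the older mutant against 47 dpf wild type (circles), against 61 dpf wild type (triangles) and for the wild-type ages (squares); the vitellogenin list (medians 1.71, -3.98 and 6.25) is not drawn. The macrophage list lies at 1.23 and the erythroid list at -0.80 in the older mutant against 47 dpf wild type, while the lists of oocyte growth factors and regulators (-0.09), germ cell and piRNA (-0.08) and cell cycle (-0.08) lie close to 0.

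A further set of lists is of vessels and of tissues that a dissection can carry. The 38 endothelial and mural genes had a median of 0.36, at 0.22 to 0.46 when a library was left out, with 7 higher, and the endothelial markers kdrl, cdh5 and pecam1 had adjusted p-values of 0.777, 0.742 and 0.739. The 30 liver genes had a median of 0.53 that ran from -0.21 to 0.96 when a library was left out, and the 21 of exocrine pancreas a median of 0.39 that ran from -0.84 to 1.79. The medians of skeletal muscle (-0.29, from -0.48 to 0.20), adipocyte (0.06, from -0.08 to 0.13) and intestine (0.12, from -0.06 to 0.18) also changed sign. Liver genes summed to 98.3, 64.1 and 72.5 CPM in wild type at 47 dpf and 132, 75.6 and 71.2 CPM in mutant at 61 dpf, and pancreas genes to 649, 8 and 155 CPM and to 267, 12.4 and 797 CPM. Neither sum separated the groups. The shares of blood, immune and matrix cells in each ovary were not measured, and their part in the list values was not tested.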

How the data were processed

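Estimated counts, 1 value for each gene symbol in each library, were deposited by the authors in a single table. They came from kallisto with GRCz11, per the submitters' processing notes; the version, annotation and summing of transcripts are not given in the labels. Per the labels' protocols, cDNA was made with a Tecan Ovation kit. The ages of the labels, which differ from those of the design text, were used. Of 26172 lines, the unnamed one (at most 0.000113% of a library) and 17 with a date for a name (0.0897% to 0.125%) were left out.

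Counts were rounded and filtered with filterByExpr on the 4 groups, which left 21393 of 26154 genes. All 12 libraries (16439392 to 38720031 counts) were fitted in 1 quasi-likelihood model with TMM scaling (edgeR 4.0.16, R 4.3.3), and every adjusted p is from it unless a fit is named. Called genes had a Benjamini-Hochberg adjusted p, taken over all tested genes, under 0.05. Log2 CPM used a prior count of 2. A count of 0 allows up to 3 counts, 0.0775 to 0.182 CPM per library, covering counting error only. The exact test of 3 against 3 libraries cannot give a p under 0.1, so none was used. Alternatives were other scaling and filters, the compared libraries only, a replicate block, leaving out each library, and DESeq2 1.42.0.

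The members and the 30 gene lists (810 of 888 members in the table) were chosen with earlier results of these data known. Genes were named by a rule: adamts9, 18 key gonad genes, the 8 largest rises and falls among called genes (mean log2 CPM of at least 1, groups not overlapping, no clone, locus or date name), up to 2 called members of each list or 1 if none, the 5 largest rises and falls with age in wild type, and cell type markers. Further list members called in the fit of the 6 compared libraries, and stat1b, wt1a and aldh1a2, are extra examples chosen after their values were seen. The choice of piwil1 and dazl among the germ cell markers was also made then. Not all cell type markers of the rule are printed. Among those left out are sox9a of the testis, tekt1, shcbp1l and zpbp of spermatids, and mpeg1.1 of macrophages. Gene order came from a RefSeq table of GRCz12tu, which placed 20511 genes.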

Additional observations from a re-analysis of the deposited data

How the results depend on the processing

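For the older mutant against the younger wild type, the count of called genes was 16 to 19 with other scaling or filters, 13 with a replicate block, 71 (50 higher, 21 lower) in the fit of the compared libraries only, 297 (220 higher, 77 lower) with DESeq2, and 12 to 18 without each library in turn. Of the 17 called genes, 15 remained called in the fit of the compared libraries, 12 with the block and 11 to 15 without a library, and none changed direction; nfil3-5 and phf2 were lost in the first and fn1b, irf1b, nfil3-5, phf2 and prickle2b with the block. For wild type between ages the count of 327 became 115 with the block, 26 in the fit of the compared libraries, 1669 with DESeq2 and 16 to 842 without a library, and upper-quartile scaling gave 92 higher and 219 lower. For the genotypes at 61 dpf the count of 390 became 1008 with upper-quartile scaling (894 higher, 114 lower, median of all genes 0.20), 86 with the block, 20 in the fit of the compared libraries, 2387 with DESeq2 and 27 to 1637 without a library. Genes with an interval inside a fold of 2 numbered 8660 to 9864 without a library and 12306 in the fit of the compared libraries. The distance of 0.812 became 0.824 with upper-quartile scaling, 0.825 without a filter, 0.742 with the stricter filter, 0.796 to 0.83 without a library, and 0.375 with the spread within groups taken off, an alternative chosen after the data were seen. The place of 0.303 ranged from 0.247 to 0.619 without a library. Samples of the 2 groups share only a replicate number: the same-numbered ones correlated at 0.0202, 0.0347 and -0.0292 in their deviations from the group means, so the numbers do not pair them. The causes of these shifts were not tested. A count of 0 allows up to 0.182 CPM in the shallowest library, which limits statements on the genes near 0.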

Other observations

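Other gene groups of the table gave values that no comparison above describes. The 28 immediate early genes, which respond within minutes to stimulation or handling, had a median log2 fold change of 0.49 in the older mutant against the younger wild type, with 22 above 0 and 5 higher at an unadjusted p under 0.05. Among all genes tested, 51% were above 0, and 6.08% were higher and 2.69% lower at that p. The transcription factor gene egr1 of this list was at 4.17, 3.58 and 2.6 CPM in wild type at 47 dpf and 6.08, 10.7 and 12 CPM in mutant at 61 dpf (1.47 ± 0.33, edgeR adjusted p = 0.135), and mutant at 47 dpf was at 9.41, 12.2 and 8.74 CPM. The 20 prostaglandin and ovulation genes had a median of 0.40, with 6 higher and none lower at an unadjusted p under 0.05, beside the same shares of all genes. The 27 genes of apoptosis and p53 had a median of -0.18, with none higher and 1 lower, which is near the shares of all genes (6.08% and 2.69%). The 26 spermatid and axoneme genes had a median of 0.33, with 18 above 0, 2 higher and none lower. In 9 of them the groups did not overlap with the mutant above, against 11.7% of all genes. Medians were 0.30 for 21 lymphocyte genes, 0.05 for 22 of steroid synthesis, 0.255 for 15 steroid and progestin receptors and -0.04 for 30 of yolk and lipid uptake.

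Single list members gave the following values. wt1a, a transcription factor of gonadal and renal support cells, was at 12.9, 8.42 and 7.11 CPM in wild type at 47 dpf, 16.4, 32.5 and 29.4 CPM in mutant at 61 dpf (1.46 ± 0.32, adjusted p = 0.135) and 7.04, 11.8 and 6.36 CPM in wild type at 61 dpf. aldh1a2, which makes retinoic acid, was at 12.1, 9.57 and 7.68 CPM, 18, 21.9 and 21.6 CPM (1.07 ± 0.26, adjusted p = 0.189) and 5.71, 6.19 and 9.12 CPM. cenpf, a kinetochore gene, was at 150, 228 and 359 CPM in wild type at 47 dpf, 109, 163 and 130 CPM in mutant at 61 dpf and 467, 322 and 560 CPM in wild type at 61 dpf, and was called only between the genotypes at 61 dpf among these comparisons of the older mutant (-1.75 ± 0.33, adjusted p = 0.0324). The 74 tested ribosomal protein genes had a median of -0.02 in the older mutant against the younger wild type, and the 13 genes of the mitochondrial genome one of 0.23. Mitochondrial transcripts took 0.709% to 0.826% of the counts of the younger wild type, 0.749% to 1.06% of those of the older mutant and 1.06% to 2.21% of those of the older wild type.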
